A study of Mus musculus with 4 samples.

Results

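Condensin and cohesin are ring-shaped protein complexes that fold and hold chromosomes, and the genes described here encode 10 of their subunits: Smc2, Smc4, Ncapd2, Ncapd3, Ncaph and Ncapg of condensin and Smc1a, Smc3, Rad21 and Stag2 of cohesin. The members were taken by gene symbol from a table of read counts for 56350 genes, each symbol matched 1 gene, and all 10 were among the 14455 genes with enough counts to be tested. RNA was measured in EO771, a mouse mammary carcinoma cell line of C57BL/6 origin grown in medium with serum. The treated cells were cultured for 48 h with BML-210 at 1.0 µM, and the control cells are called untreated in one label, WT in another and given vehicle in the treatment protocol. BML-210 is a small synthetic compound that blocks histone deacetylases (HDACs), which take acetyl groups off histones and other proteins. Each group has 2 libraries of total RNA, and no label says whether they came from separate cultures, so the p-values below measure only the spread between these libraries, which may be technical. The library codes carry the letter V for the libraries labelled BML-210 and D for those labelled untreated, the meaning of these letters is not stated, and every direction below rests on the group labels. Were the labels exchanged, each fold would become its inverse and every higher gene a lower one.

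Both complexes are built on a pair of SMC ATPases, long coiled-coil proteins that join at a hinge and are closed at their heads by a kleisin subunit. Smc2 and Smc4 form the core of every condensin. Condensin I adds the kleisin Ncaph and the HEAT-repeat subunits Ncapd2 and Ncapg, and condensin II adds their counterparts Ncaph2, Ncapd3 and Ncapg2. Condensin compacts chromosomes into rods in mitosis, condensin II in the nucleus from prophase and condensin I after the nuclear envelope breaks down. In cohesin, Smc1a and Smc3 are closed by the kleisin Rad21, to which Stag1 or Stag2 binds. Cohesin holds sister chromatids together from S phase to anaphase and extrudes chromatin loops in interphase.

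All 10 subunit genes rose with BML-210 (edgeR quasi-likelihood test, Benjamini-Hochberg adjusted p of 0.00584 or less), against a background of 22.9% of all tested genes called higher and 23.5% called lower. The 6 condensin genes had a median log2 fold change of 0.64 and the 4 cohesin genes one of 0.32, while the median over all tested genes was -0.0025 and the median of their absolute values 0.25. For each of the 10 genes both BML-210 libraries lay above both untreated libraries, which was so for 35.2% of tested genes. In bulk RNA, fewer or more cells of a kind (such as cells preparing to divide) and less or more RNA per cell cannot be told apart.

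Total gene counts were 13167893 and 13961743 in the BML-210 libraries and 16534667 and 13855061 in the untreated libraries, and the 10 members took 0.161% and 0.162% of them with BML-210, against 0.115% and 0.112% in untreated libraries. Mitochondrial genes took 5.57% and 5.41% of counts in the BML-210 libraries and 5.40% and 5.05% in the untreated libraries. Of 6 markers of epithelial and mammary carcinoma cells 3 were tested, with 0 higher and 1 lower. This and the marker counts below stand against 22.9% of all tested genes called higher and 23.5% called lower. The keratin gene Krt8 fell to 28.3 and 33.0 CPM (counts per 1000000 reads of the scaled library) with BML-210, against 43.6 and 49.2 CPM in untreated libraries (log2 fold change -0.59, adjusted p = 3.50e-09, edgeR). Vim and Cdh1 did not pass the test, at log2 fold changes of -0.04 and -0.07 with at least 22180 and at most 16 counts in any library, and Krt18, Krt19 and Epcam had at most 9 counts. Of 8 macrophage and leukocyte markers 4 were tested, with 2 lower and 0 higher in the BML-210 libraries. The summed level of the 8 was 35.6 and 34.5 CPM with BML-210, against 167 and 171 CPM in untreated libraries. Most of it was the lysosomal glycoprotein gene Cd68, which was lower. The macrophage marker Adgre1 was lower as well, with 1 and 4 counts with BML-210 against 33 and 13 counts in untreated libraries (log2 fold change -2.98, adjusted p = 3.83e-05, edgeR). Ptprc and Lyz2 did not pass the test, at log2 fold changes of 0.02 and -0.40, and their groups overlap. They had at most 16 and 49 counts in any library. Too low to be tested were Csf1r (7 and 3 counts with BML-210 against 16 and 6 in untreated libraries), C1qb (2 and 1 counts with BML-210 against 13 and 4 in untreated libraries), and Tyrobp and C1qa, with at most 3 counts in any library. Of 6 fibroblast markers 4 were tested, with 2 higher and 1 lower and a summed level of 202 and 207 CPM with BML-210 against 231 and 239 CPM in untreated libraries. Pdgfra fell to 97.5 ± 4.51 CPM with BML-210, against 156 ± 1.32 CPM in untreated libraries (SD, n = 2; log2 fold change -0.68, adjusted p = 8.85e-20, edgeR). Pdgfrb was higher, with 81.3 ± 0.221 CPM with BML-210 and 54.9 ± 1.00 CPM in untreated libraries (log2 fold change 0.57, adjusted p = 5.52e-13, edgeR), as was Col3a1, at a lower level (log2 fold change 1.55, adjusted p = 8.63e-05, edgeR). Col1a1 did not pass the test (log2 fold change -0.05), and Col1a2 and Dcn had at most 3 and 1 counts in any library. Of 4 endothelial markers 2 were tested and 0 called, with 8.55 and 7.56 CPM in all with BML-210, against 7.55 and 6.19 CPM in untreated libraries. The part of these markers in the results was not tested.

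Promoter windows, from 250 bases before to 50 after the gene's start, were read from a RefSeq table of build GRCm38.p6 (the assembly also called mm10) for 7 of the 10 members, and Smc4, Rad21 and Stag2 have no entry in it. They are shown because many genes of mitosis share short promoter elements. The part of such elements in the rise of the members was not tested. The motifs searched on both strands were the cell cycle homology region CHR (TTTGAA), the CCAAT box (CCAAT), an E2F site (TTTCCCGC, TTTGGCGC, TTTGCCGC or TTTCGCGC) and the GC box (GGGCGG), and matches on either strand, none of which overlaps another, are in capitals below. The windows of the condensin genes Smc2 (chr4:52438971-52439270, + strand) and Ncapg (chr5:45669675-45669974, + strand) and of the cohesin genes Smc3 (chr19:53600146-53600445, + strand) and Smc1a (chrX:152016178-152016477, + strand), those with the smallest adjusted p of each complex among the windows in the table, read 5′ to 3′ as follows.
Smc2 promoter: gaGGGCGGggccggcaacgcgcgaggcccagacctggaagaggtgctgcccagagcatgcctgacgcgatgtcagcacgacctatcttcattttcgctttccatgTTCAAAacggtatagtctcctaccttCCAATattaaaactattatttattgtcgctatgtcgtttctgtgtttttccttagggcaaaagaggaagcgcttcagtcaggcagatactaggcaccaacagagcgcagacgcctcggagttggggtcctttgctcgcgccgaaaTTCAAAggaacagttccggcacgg
Ncapg promoter: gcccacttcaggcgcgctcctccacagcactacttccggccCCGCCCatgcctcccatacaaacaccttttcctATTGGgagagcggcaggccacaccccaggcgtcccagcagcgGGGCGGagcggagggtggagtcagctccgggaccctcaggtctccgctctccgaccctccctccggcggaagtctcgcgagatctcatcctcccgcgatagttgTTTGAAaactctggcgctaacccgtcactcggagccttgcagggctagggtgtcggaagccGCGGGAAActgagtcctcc
Smc3 promoter: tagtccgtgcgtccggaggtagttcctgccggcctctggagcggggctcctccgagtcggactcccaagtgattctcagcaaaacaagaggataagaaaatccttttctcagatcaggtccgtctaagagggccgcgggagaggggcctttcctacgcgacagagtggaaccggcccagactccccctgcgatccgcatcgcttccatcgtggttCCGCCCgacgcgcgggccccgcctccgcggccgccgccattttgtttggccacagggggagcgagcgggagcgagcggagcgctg
Smc1a promoter: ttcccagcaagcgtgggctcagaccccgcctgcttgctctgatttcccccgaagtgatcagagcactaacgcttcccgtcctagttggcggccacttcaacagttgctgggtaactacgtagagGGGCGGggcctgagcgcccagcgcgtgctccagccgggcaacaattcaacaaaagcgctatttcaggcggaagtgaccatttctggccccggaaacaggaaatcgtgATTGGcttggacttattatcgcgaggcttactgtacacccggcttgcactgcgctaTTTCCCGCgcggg

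A CHR was present in 3 of 5 condensin windows (Smc2, Ncapd2 and Ncapg) and 0 of 2 cohesin windows, against 17.9% of all 32851 windows in the table, coding and non-coding genes together. The E2F site was present in 2 of 5 condensin windows (Ncapd2 and Ncapg) and in that of Smc1a, against 2.26% of all windows. CCAAT boxes were in 3 of 5 condensin windows and 1 of 2 cohesin windows (37.4% of all), and GC boxes in 4 of 5 and 2 of 2 (35.7% of all). In Ncapg the CHR lay 30 to 25 bases before the start, and Ncapd2 had 3 CCAAT boxes, a CHR and an E2F site that ends at the base before the RefSeq start. That start of Ncapd2 lies 115 bases from the start of the gene in the deposited coordinates, so the position depends on the start used. The window of Ncapd3 held a single GC box and that of Ncaph held none of the 4 motifs. G and C made up 52.7% (Smc2) to 69.3% (Ncapd3) of the bases in the 7 windows. The windows of the background were not matched to them in base composition. A match of letters is not a site of binding, and these counts over 7 windows were not tested.

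**Figure D1:**
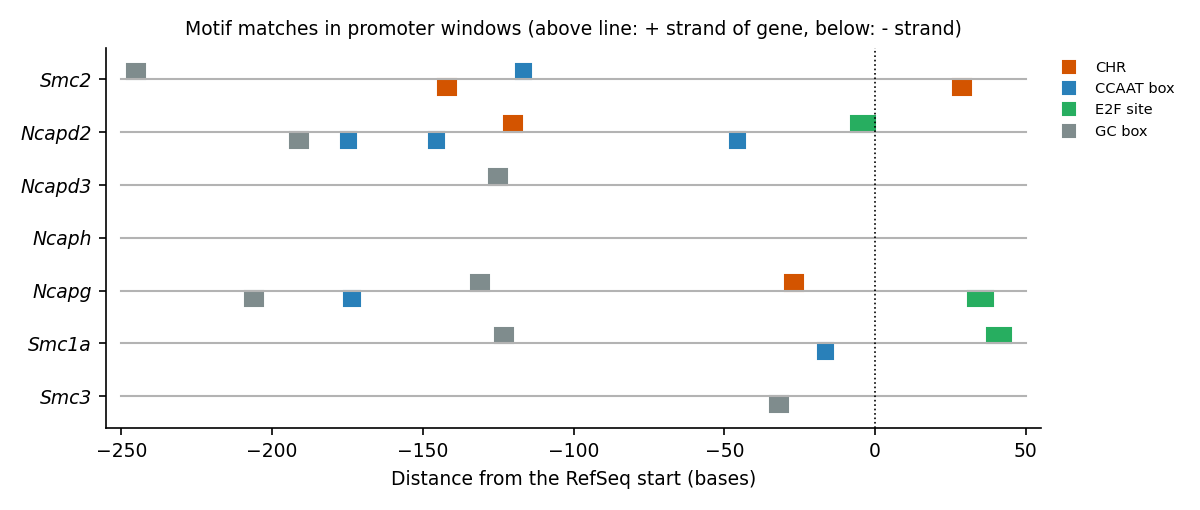
Position of 4 short motifs in the promoter windows of 5 condensin genes (Smc2 to Ncapg) and 2 cohesin genes (Smc1a, Smc3), as distance in bases from the RefSeq start, with matches on the gene's own strand above each line and on the other strand below it. CHR matches stand in 3 condensin windows, and Ncaph has no match.

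The SMC core genes of condensin had the largest fold changes of the 10 members. Smc2 (ENSMUSG00000028312.19, chromosome 4, 52439243 to 52488260, mm10) had 124 and 122 CPM in the BML-210 libraries, against 72.2 and 74.7 CPM in the untreated libraries. The replicates of each group lay within 3 CPM of each other, and the groups were far apart. The log2 fold change was 0.75 ± 0.05 (SE, n = 2 per group; adjusted p = 6.12e-20, edgeR), or 1.68-fold (0.596-fold with the labels exchanged). Its partner Smc4 (ENSMUSG00000034349.14, chromosome 3, 69004738 to 69034623) had 427 and 428 CPM with BML-210, against 271 and 259 CPM in the untreated libraries. The log2 fold change of Smc4 was 0.69 ± 0.03 (SE; adjusted p = 1.95e-26, edgeR), 1.61-fold (0.620-fold with the labels exchanged), the smallest adjusted p of the 10 genes. No exon of either gene overlaps one of another gene in the table.

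The 3 subunits that belong to condensin I alone rose by 0.60 to 0.67 on the log2 scale. The kleisin gene Ncaph (ENSMUSG00000034906.15, chromosome 2, 127103809 to 127133954) had 76.2 and 75.1 CPM in the BML-210 libraries, against 50.8 and 48.1 CPM in the untreated libraries, a log2 fold change of 0.61 ± 0.06 (SE; adjusted p = 1.62e-13, edgeR). The HEAT-repeat subunit gene Ncapd2 (ENSMUSG00000038252.13, chromosome 6, 125168007 to 125191701) had 102 and 110.3 CPM with BML-210, against 71.0 and 69.5 CPM in untreated libraries, a log2 fold change of 0.60 ± 0.05 (SE; adjusted p = 4.87e-15, edgeR). The gap between its BML-210 libraries was the widest of the 10 genes in that group, at 0.11 on the log2 scale, and still small beside the change. The second HEAT-repeat subunit gene, Ncapg (ENSMUSG00000015880.13, chromosome 5, 45669919 to 45700546), had 96.6 and 90.2 CPM with BML-210, against 60.2 and 57.0 CPM in untreated libraries, a log2 fold change of 0.67 ± 0.05 (SE; adjusted p = 6.69e-16, edgeR). An exon of Ncapg overlaps one of Lcorl on the opposite strand, which held 8546 counts over the 4 libraries, against 4312 for Ncapg, and the counting rule for reads in such an overlap is not stated in the labels or headers. Lcorl itself was lower in the BML-210 libraries, with a mean of 129 CPM there and 167 CPM in the untreated libraries, and a log2 fold change of -0.38 (adjusted p = 2.19e-11, edgeR).

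Of the 3 subunits that belong to condensin II alone, 2 rose and 1 did not pass the test. Of all tested genes, 22.9% were called higher and 23.5% lower. The differences between the 3 subunits were not tested. Ncapd3 (ENSMUSG00000035024.16, chromosome 9, 27030175 to 27095315), the HEAT-repeat subunit that takes the place of Ncapd2, had 81.4 and 84.5 CPM in the BML-210 libraries, against 66.3 and 60.7 CPM in the untreated libraries. Its log2 fold change of 0.38 ± 0.06 (SE; adjusted p = 4.08e-08, edgeR) was the smallest of the 6 condensin members. Ncapg2, the counterpart of Ncapg, rose by 0.74 on the log2 scale (84.9 and 86.1 CPM with BML-210 against 49.7 and 53.0 CPM in untreated libraries; adjusted p = 4.82e-17, edgeR). Ncaph2, the kleisin of condensin II, did not pass the test: it had 65.7 and 63.3 CPM in the BML-210 libraries, against 64.9 and 69.3 CPM in the untreated libraries. The groups overlap, the log2 fold change was -0.06 with a 95% interval of -0.17 to 0.06, and the edgeR adjusted p was 0.452. Exons of Ncaph2 overlap ones of Sco2 and Tymp, which together held 129 counts over the 4 libraries, against 3774 for Ncaph2.

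**Figure D2:**
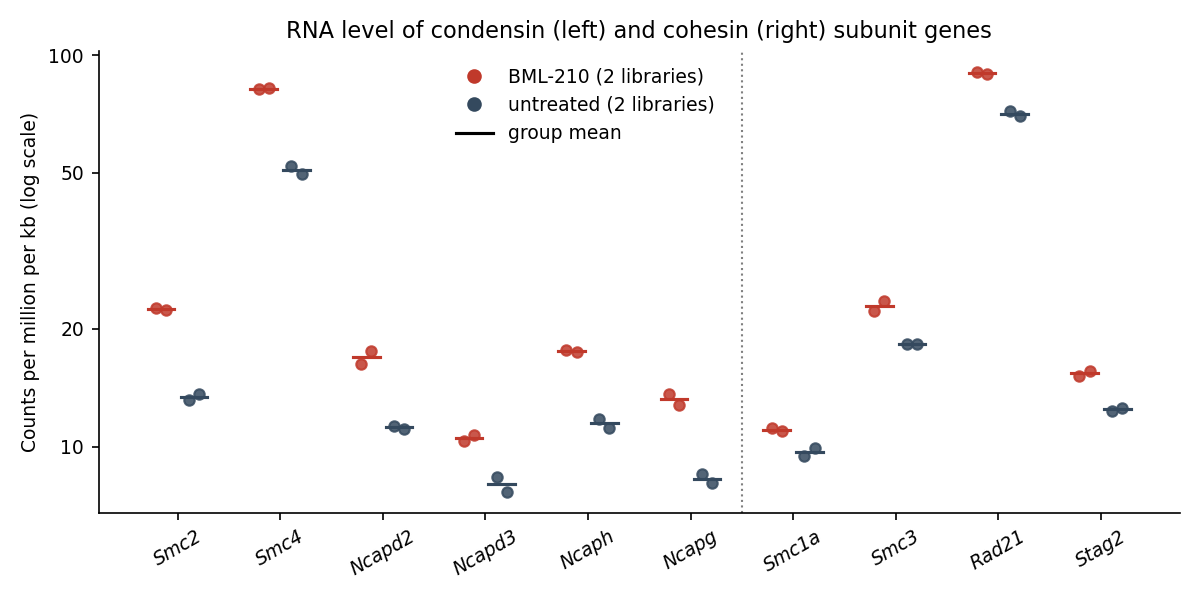
Level of the 10 subunit genes in CPM per kb of exonic length (log axis), with 1 point per library and a line at the mean of each group of 2. In every gene both BML-210 points lie above both untreated points, and the gap is narrowest for Smc1a among the cohesin genes on the right and for Ncapd3 among the condensin genes on the left.

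The 4 cohesin genes rose by 0.19 to 0.35 on the log2 scale, and the 6 condensin genes by 0.38 to 0.75. Rad21 (ENSMUSG00000022314.10, chromosome 15, 51962240 to 51991747), the kleisin that separase cleaves at anaphase, had 384 and 379 CPM in the BML-210 libraries, against 305 and 295 CPM in the untreated libraries. Its log2 fold change was 0.35 ± 0.03 (SE, n = 2 per group; adjusted p = 5.04e-14, edgeR), 1.27-fold. Smc3 (ENSMUSG00000024974.10, chromosome 19, 53600398 to 53645833), the ATPase whose acetylation locks cohesin on sister chromatids, had 123 and 131 CPM with BML-210, against 102 and 101 CPM in untreated libraries, a log2 fold change of 0.33 ± 0.05 (SE; adjusted p = 2.17e-08, edgeR). Stag2 (ENSMUSG00000025862.14, chromosome X, 42149317 to 42277185), the more abundant of the alternative SA subunits in these cells, had 126 and 129 CPM with BML-210, against 102 and 104 CPM in untreated libraries, a log2 fold change of 0.30 ± 0.05 (SE; adjusted p = 7.89e-08, edgeR).

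Smc1a had the smallest fold change of the members. Smc1a (ENSMUSG00000041133.11, chromosome X, 152016428 to 152062694), the ATPase that pairs with Smc3, had 64.3 and 63.4 CPM in the BML-210 libraries, against 54.5 and 57.5 CPM in the untreated libraries. The log2 fold change was 0.19 ± 0.06 (SE; adjusted p = 0.00584, edgeR), 1.14-fold. The groups did not overlap, but the call was lost without untreated replicate 1 (log2 fold change 0.15, adjusted p = 0.105, edgeR) and with DESeq2 (adjusted p = 0.0997), in a range of 0.00281 to 0.105 over 14 alternatives.

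Of the other cohesin subunits, only Stag1 had enough counts to be tested. Stag1, the alternative to Stag2, rose by 0.52 on the log2 scale (111 and 107 CPM with BML-210 against 75.6 and 76.3 CPM in untreated libraries; adjusted p = 1.34e-13, edgeR). Smc1b, Rec8, Rad21l and Stag3, subunits of the cohesin of meiosis, had at most 4 counts in any library, so no change in them was detectable at this depth, and 3 counts correspond to 0.183 to 0.227 CPM in a library.

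**Figure D3:**
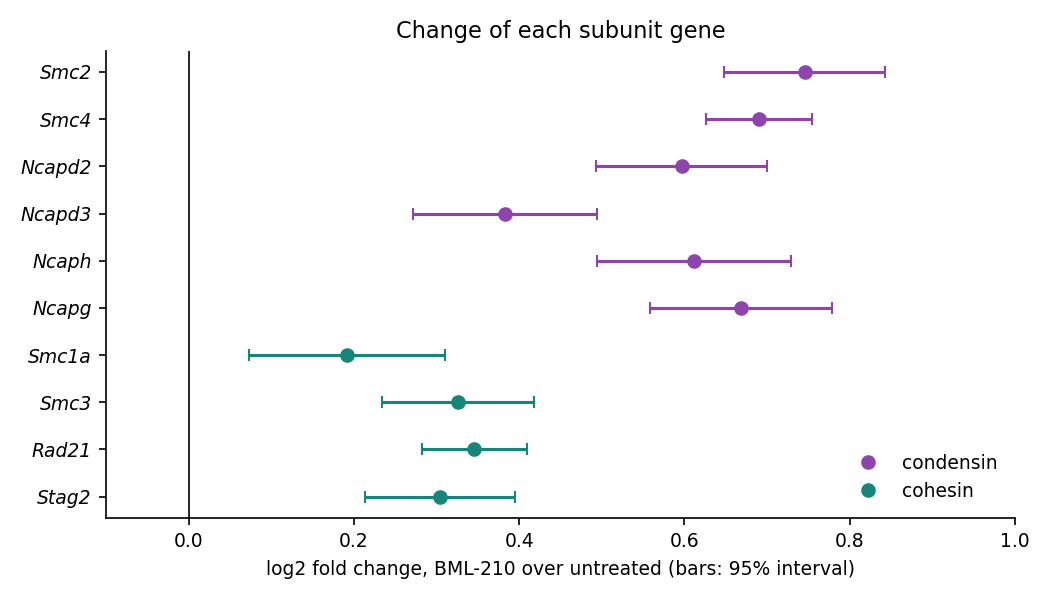
Log2 fold change of each subunit gene, BML-210 over untreated, with its 95% interval from the edgeR fit. The intervals of 5 condensin genes lie above 0.49 and those of the 4 cohesin genes below 0.42, while that of Ncapd3 (0.27 to 0.49) overlaps the cohesin genes.

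Condensin was set against cohesin within each library. Summed over its 6 genes, condensin had 907 and 910.3 CPM in the BML-210 libraries, against 591 and 568 CPM in the untreated libraries. Cohesin had 697 and 702 CPM over its 4 genes with BML-210, against 563 and 558 CPM in untreated libraries. The ratio of the sums was 1.30 and 1.30 in the BML-210 libraries and 1.05 and 1.02 in the untreated libraries, so the replicates were close and the groups apart. This ratio, from which the scaling of libraries cancels, differed by 0.33 on the log2 scale (1.26-fold), with a pooled SD between replicates of 0.02. Per kb of exonic length it was 1.17 and 1.17 with BML-210 against 0.938 and 0.915 in untreated libraries. The 95% intervals of Smc2, Smc4, Ncapd2, Ncaph and Ncapg lay above those of all 4 cohesin genes, with a lowest bound of 0.49 against a highest of 0.42. This gap is one between the chosen genes, and subunits outside them do not all keep it. The interval of the cohesin gene Stag1 (0.42 to 0.62) overlaps those of Ncapd2, Ncaph and Ncapg. In condensin II, that of Ncaph2 (-0.17 to 0.06) lies below all 4 cohesin genes and that of Ncapg2 (0.63 to 0.85) above them. The difference between the complexes carries no p-value, because the ratio is a score over chosen genes and 2 libraries against 2 allow no exact permutation p below 0.333.

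The proportions of paired subunits were also compared within each library, for pairs chosen after their values were seen. Per kb of exonic length, Ncaph2 over Ncaph was 0.885 and 0.864 in the BML-210 libraries, against 1.31 and 1.48 in the untreated libraries. The kleisin of condensin II was thus the more abundant RNA of that pair in the untreated libraries and the less abundant in the BML-210 libraries. Ncapd3 over Ncapd2 was 0.633 and 0.608 with BML-210 against 0.742 and 0.693 in untreated libraries, and Ncapg2 over Ncapg was 0.625 and 0.678 with BML-210 against 0.587 and 0.660 in untreated libraries, with overlapping groups. In cohesin, Stag1 over Stag2 was 0.619 and 0.584 with BML-210 against 0.519 and 0.515 in untreated libraries, and Smc1a over Smc3 was 0.501 and 0.466 with BML-210 against 0.516 and 0.545 in untreated libraries. Smc2 over Smc4 was 0.276 and 0.271 with BML-210 against 0.254 and 0.275 in untreated libraries, and the groups overlap, while both genes rose. These ratios were not tested.

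**Figure D4:**
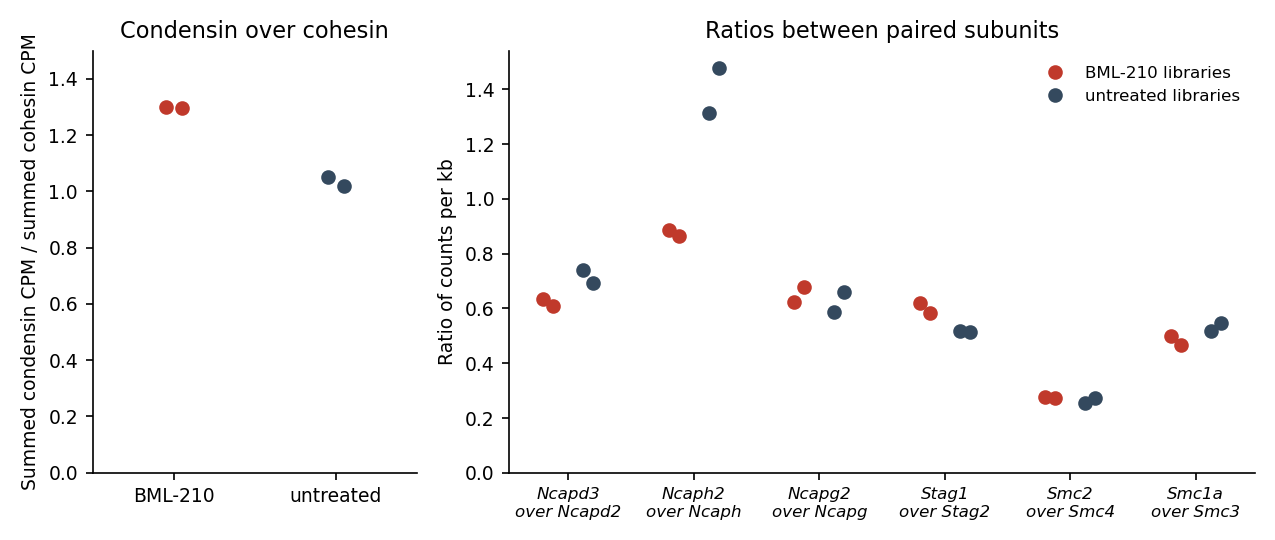
Left, summed CPM of 6 condensin genes over that of 4 cohesin genes, 1 point per library. Right, ratio of counts per kb of exonic length between paired subunits, 1 point per library: Ncaph2 over Ncaph is below 0.9 in both BML-210 libraries and above 1.3 in both untreated libraries, while the groups overlap for Smc2 over Smc4 and Ncapg2 over Ncapg.

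The level per kb differed far more between subunits than between groups. Rad21 was highest, with 90.1 ± 0.727 CPM per kb in the BML-210 libraries and 70.9 ± 1.53 in the untreated libraries (SD, n = 2), followed by Smc4 with 82.0 ± 0.178 and 50.8 ± 1.68 CPM per kb. Smc3 came next, with 22.9 ± 0.947 CPM per kb in the BML-210 libraries and 18.3 ± 0.0348 in the untreated libraries. In the BML-210 libraries the order after these was Smc2, Ncaph, Ncapd2, Stag2, Ncapg, Smc1a and Ncapd3, and the ranges of neighbours overlapped for Smc3 with Smc2 and for Ncaph with Ncapd2. In the untreated libraries it was Smc2, Stag2, Ncaph, Ncapd2, Smc1a, Ncapg and Ncapd3, with overlaps for Ncaph with Ncapd2 and for Ncapg with Ncapd3. Ncapd3 was lowest in both groups, at 10.5 ± 0.272 CPM per kb in the BML-210 libraries and 8.04 ± 0.502 in the untreated libraries. Exonic length is that of all annotated exons joined, so the level of a gene with rarely used exons is understated.

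Regulators of cohesin were mostly higher as well. Of 15 genes that load, acetylate, release, cleave or otherwise act with cohesin, 13 were higher and 0 lower in the BML-210 libraries. Their median log2 fold change was 0.31, and 22.9% of all tested genes were called higher. Sgo1, the shugoshin that protects centromeric cohesin in mitosis, had 49.0 and 47.7 CPM with BML-210 against 24.0 and 23.2 CPM in untreated libraries, a log2 fold change of 1.03 ± 0.08 (SE; adjusted p = 1.77e-17, edgeR). Its relative Sgo2a rose by 0.65 (adjusted p = 3.97e-15, edgeR), and the cohesin-bound factors Pds5b and Pds5a rose by 0.49 and 0.31 (adjusted p = 9.80e-17 and 4.74e-12, edgeR). Exons of Sgo2a overlap one of Kctd18 on the opposite strand, which held 971 counts against 4458 for Sgo2a. The 2 that did not pass, named after their values were seen, were Ddx11, a helicase that aids cohesion (log2 fold change 0.08, 95% interval -0.11 to 0.27), and Hdac8, the deacetylase of SMC3 in human cells. Hdac8 had 11.7 and 11.3 CPM in the BML-210 libraries, against 9.98 and 10.6 CPM in the untreated libraries, with a log2 fold change of 0.17 and a 95% interval of -0.11 to 0.44. Of the 13 calls, 3 (Mau2, Esco1 and Pttg1, also named after their values were seen) were lost when 1 library was left out or with DESeq2: those of Mau2 and Pttg1 without untreated replicate 1 (log2 fold changes 0.10 and 0.10) or BML-210 replicate 2 (0.13 and 0.19), and that of Esco1 without BML-210 replicate 1 (0.13).

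The kinases and partners of condensin on mitotic chromosomes were higher in 11 of 11 cases (median log2 fold change 0.49), against 22.9% of all tested genes called higher. Top2a, the topoisomerase that works beside condensin on the chromosome axis, had 597 and 601 CPM in the BML-210 libraries, against 379 and 354 CPM in the untreated libraries. Ccnb1, the cyclin whose kinase phosphorylates condensin at mitotic entry, rose by 0.83 (111 and 110.2 CPM with BML-210 against 63.4 and 61.3 CPM in untreated libraries; adjusted p = 7.20e-21, edgeR). The proliferation marker Mki67, which coats mitotic chromosomes, rose by 0.47 and the chromosomal passenger gene Incenp by 0.49 (adjusted p = 1.53e-16 and 4.14e-12, edgeR). The part of a changed share of cycling cells in the condensin result was not tested.

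Of the 8 genes of SMC5/6, the related SMC complex of DNA repair, 4 were higher and 0 lower (median log2 fold change 0.23), against 22.9% of all tested genes called higher and 23.5% called lower. The ATPase gene Smc6 rose by 0.47 (211 and 211 CPM with BML-210 against 153 and 152 CPM in untreated libraries; adjusted p = 5.74e-16, edgeR), and Slf1, Slf2 and Nsmce4a rose by 0.63, 0.33 and 0.61 (adjusted p = 2.08e-10, 2.98e-08 and 1.74e-07, edgeR). Its partner Smc5, named after its values were seen, had 125 and 124 CPM with BML-210 against 125 and 120.1 CPM in untreated libraries, a log2 fold change of 0.02 with a 95% interval of -0.07 to 0.11. Smc5 and Smc6 form a heterodimer, and the difference between their changes was not tested.

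**Figure D5:**
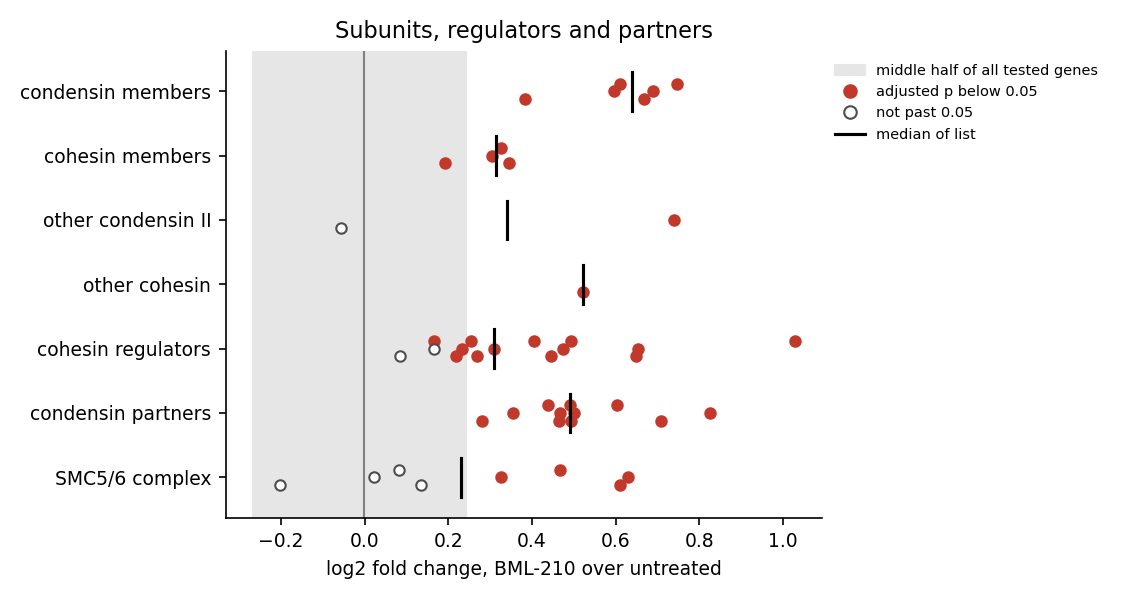
Log2 fold change of each tested gene, BML-210 over untreated, by list, with filled points for genes past an edgeR adjusted p of 0.05, open points for the others and a bar at each list's median. The grey band spans the quartiles of all tested genes (-0.27 to 0.24). All 6 condensin members and 11 condensin partners lie to its right, as do 3 of the 4 cohesin members.

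Among 7053 other genes with a mean of at least 20 CPM, those whose log2 CPM over the 4 libraries lay closest to the mean profile of the condensin members were Rbl1, Nucks1 and Nop58, at distances of 0.0105, 0.0114 and 0.0138 in log2 units. Closest to the cohesin members were Ptpa, Slc39a1 and Smurf1, at 0.00621, 0.0127 and 0.0132. The 6 condensin members themselves lay at 0.0235 to 0.238 from their mean profile, and 611 other genes lay nearer to it than the farthest of them. For cohesin the members lay at 0.0186 to 0.114 and 800 other genes were nearer than the farthest. Over 4 libraries in 2 groups, likeness of profile is close to likeness of fold change and does not single out few genes.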

How the data were processed

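Total RNA of 4 libraries (2 labelled BML-210, 2 labelled untreated) was sequenced. The authors deposited 1 table of raw read counts per gene, which per the file headers also gives exon coordinates and exonic length. The submitters' processing notes name STAR 2.5 and featureCounts (Subread 1.5.1), edgeR 3.20.8 and the build mm10. The handling of strand, overlapping genes and multi-mapping reads is not stated there. The members and gene lists were chosen with earlier results of these data known.

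The tests used edgeR 4.0.16 under R 4.3.3: filterByExpr, TMM scaling and the robust quasi-likelihood test on the group alone (2 residual degrees of freedom), adjusted by Benjamini-Hochberg over 14455 genes and called below 0.05. This test shares information on the spread across genes. Its p-values and 95% intervals therefore use more degrees of freedom than the 2 residual ones of a single gene. The SE is the log2 fold change over the square root of F. CPM use TMM-scaled library sizes. Named are all members and, per list, up to 4 genes with the smallest adjusted p and up to 2 called against the majority of their list (Pdgfra alone was), plus the 3 genes nearest in profile to each complex (Euclidean distance of centred log2 CPM). Ddx11, Hdac8, Mau2, Esco1, Pttg1, Smc5, Nsmce3 and the untested or uncalled markers were named after their values were seen. Protein sequences of the SMC members, also planned, were not used here. Overlaps were read from the deposited exon coordinates.

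Replicates were not identical within sampling noise, with a chi-square per degree of freedom of 1.76 for BML-210 and 2.70 for untreated. Same-numbered libraries did not deviate together (r = 0.01 across genes, which are not independent). The common coefficient of variation between libraries in the fit, beyond counting noise, was 2.49%. In a test on simulated data of 14162 genes, 57.1% of 98 genes changed by 0.5 (log2) and 79.4% of 97 changed by 1 were recovered, with 2 false among 135 calls. In the real data far more genes were called, 22.9% higher and 23.5% lower. The simulated rates therefore need not hold for the real calls. Floors of 3 counts cover counting error only. Alternatives were RLE, upper-quartile and no scaling, genes over 1% of a library left out, other filters, the replicate block, each library left out, thinned counts, limma-voom (limma 3.58.1) and DESeq2 1.42.0.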

Additional observations from a re-analysis of the deposited data

How the results depend on the processing

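Over 14 alternatives, the 6 condensin calls and 3 of the 4 cohesin calls held, and the exception was Smc1a, as given above. The cohesin median was 0.29 with upper-quartile scaling, against 0.32. With single libraries left out, the condensin median ran from 0.61 to 0.68 and the cohesin median from 0.28 to 0.33, and the log2 difference of the condensin to cohesin ratio from 0.31 to 0.35. DESeq2 called 2205 genes higher and 2130 lower, against 3312 and 3402 with edgeR. The cause was not tested. With the replicate number as a block, 3385 and 3462 genes were called, the condensin median was 0.64, the cohesin median 0.31 and no call of a member changed. Same-numbered libraries share only a number. Genes not called changed sign: Smc5 was at -0.0076 with upper-quartile scaling (edgeR adjusted p = 0.909), and with single libraries left out Smc5 ran from -0.0056 to 0.048, Ddx11 from -0.012 to 0.20 and Nsmce3 from -0.014 to 0.17. The mean of the members' log2 CPM gave 0.33 for the ratio. Without division by length (exonic lengths run from 4232 to 8273 bases), Smc4 stood above Rad21 in the BML-210 libraries, at 427 and 381 CPM. In the untreated libraries Rad21 stayed above Smc4, at 300 and 265 CPM. Scalings moved the median of all genes by less than 0.1 on the log2 scale. With 2 libraries per group, changes as small as that of Smc1a are near the limit of what these libraries resolve.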
